A study of Mus musculus with 24 samples.

Results

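The growth hormone and IGF1 axis was described through 9 genes, Ghr, Igf1, Igf1r, Igfals, Stat5a, Stat5b, Socs2, Cish and Bcl6. Their probes were found by matching each probe's accession, without its version, to the mouse RefSeq symbols, and the brightest probe stood for its gene. The 9 genes hold 14 probes, and in every tissue the same probe of a gene was the brightest. The whole series holds 45616 genes or unmatched targets. RNA from male C57BL/6J mice was measured, from white adipose tissue (WAT) and from the kidney, lung and liver, on 24 Agilent arrays in 1 colour. For each tissue there were 3 samples at 10 weeks of age (10W, young) and 3 at 90 weeks (90W, aged), and the labels name no treatment, transgene or other allele for either age. The aged livers carry the numbers 1, 2 and 4. The WAT depot is not named in the labels, and whether samples with 1 number came from 1 mouse is not known.

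Growth hormone (GH) binds its receptor GHR on the cell surface, which activates the kinase JAK2 and, through it, the transcription factors STAT5A and STAT5B. In the liver this signal drives the gene of insulin-like growth factor 1 (Igf1) and that of the acid-labile subunit (Igfals), which carries IGF1 in the blood within a complex with an IGF binding protein. It also drives the feedback inhibitors Socs2 and Cish, while BCL6 is a repressor that can bind the same DNA sites as STAT5. In rodents the pituitary releases GH in pulses in males and more evenly in females, and a group of liver genes differs between the sexes for that reason.

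Each value below is a log2 level, the log2 processed signal of a probe minus the 75th percentile of its array, so 0 is the 75th percentile. Depending on the array, 58.6% to 71.1% of probes exceeded the background clearly. The tissue labels matched the summed marker genes of their own tissue. The adipocyte marker Lep was not highest in WAT, with means of -0.27 in young WAT and 0.11 in the young liver. Some arrays stood apart in markers of other cells. The summed level of 5 hepatocyte markers (in units of the 75th percentile) was 214 in aged lung 1 and between 0.265 and 8.02 in the other lungs. The summed level of 5 neutrophil markers was 1348 in aged liver 2 and 1303 in aged lung 2, against 17.1 to 25.8 and 153 to 297 in the other aged arrays of those tissues. In aged WAT 3 it was 851, against 4.90 and 73.1 in aged WAT 1 and 2. Young WAT 3 had 91.7, against 8.39 and 1.91 in young WAT 1 and 2. In bulk RNA, fewer cells of a type and less RNA per cell cannot be told apart. Each tissue was run on a slide of its own that holds both ages, so tissue and slide cannot be told apart.

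**Figure D1:**
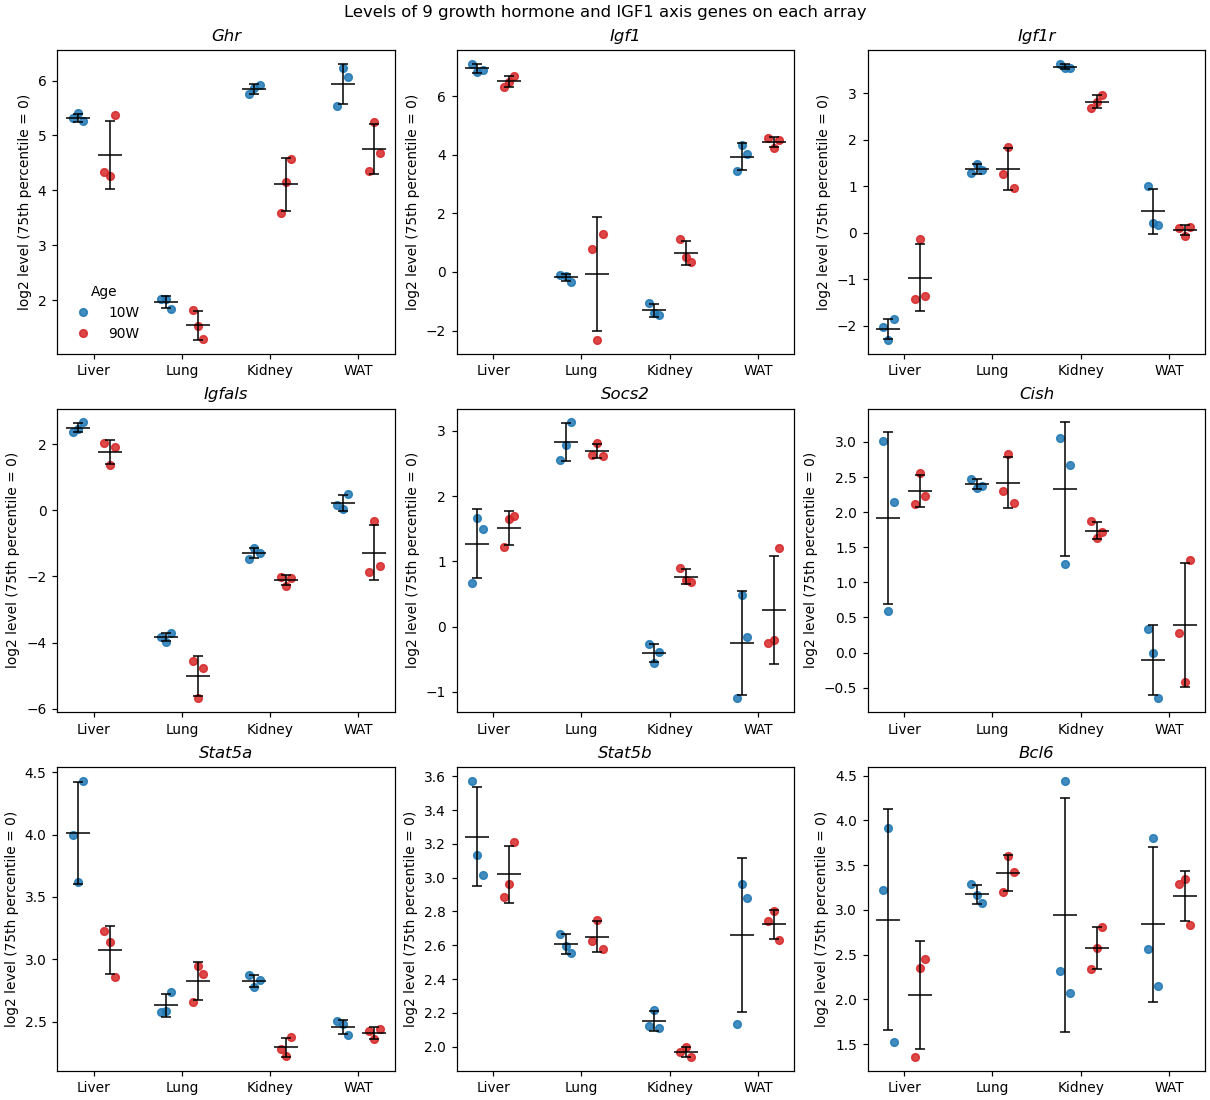
Log2 level (array 75th percentile = 0) of each of the 9 genes on each of the 24 arrays, by tissue and age. Each point is 1 array, and the bar and whiskers are the mean and SD of 3 arrays. Igf1 was highest in the liver at both ages, Igf1r was lowest there, and the young samples of Cish and Bcl6 were spread widely in the liver and kidney.

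Ghr, the receptor through which GH acts, was lower at 90W than at 10W in the kidney, where its fall was 3.34-fold. The young kidneys had log2 levels of 5.75, 5.87 and 5.92 and the aged kidneys 3.59, 4.16 and 4.57. The groups did not overlap, and the log2 change was -1.74 (SE 0.24, limma adjusted p = 0.00140). The other 2 probes of Ghr, which the array assigns to another transcript of the gene, gave changes of -1.86 and -1.75 in the kidney. In WAT the levels were 5.53, 6.23 and 6.07 at 10W and 4.35, 5.24 and 4.67 at 90W. These groups did not overlap either, but the change of -1.18 (SE 0.31) did not pass the test (limma adjusted p = 0.113). The other 2 probes gave -0.53 and -0.40 in WAT with overlapping groups, and with the normexp background correction the change was -0.41. In the young livers Ghr was at 5.32, 5.40 and 5.25, and in the aged livers at 4.32, 4.26 and 5.36. Aged livers 1 and 2 lay below every young liver, whereas aged liver 4 lay among them on this probe. On both other probes all 3 aged livers lay below the young ones, with changes of -1.20 and -1.05. On the brightest probe the change was -0.68 (limma adjusted p = 0.133), and without aged liver 4 it was -1.03 (limma adjusted p = 0.0112). In the lung Ghr was at 2.03, 2.03 and 1.84 at 10W and at 1.81, 1.53 and 1.29 at 90W, a change of -0.42 that did not pass the test (limma adjusted p = 0.152). The summed level of 5 adipocyte markers there was 36.9 to 62.3 at 10W and 7.76 to 25.2 at 90W, and its part in this change was not tested.

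Igf1, the hormone that GH induces and that promotes growth of many tissues, had its highest level in the liver. The young livers stood at 7.10, 6.82 and 6.90, which exceeded young WAT by 3.01 (8.04-fold), young lung by 7.13 and young kidney by 8.24 on the log2 scale. All 3 differences passed the test in the fit of all 24 arrays (limma adjusted p between 5.80e-10 and 0.000133). The young lungs (-0.34 to -0.10) and the young kidneys (-1.47 to -1.05) had the lowest levels in the order and did not overlap. Their difference of 1.12 (SE 0.57) did not pass the test in that fit (limma adjusted p = 0.0953), where the spread is pooled over 8 groups. It was called under 2 of 11 alternatives.

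With age Igf1 rose 3.89-fold in the kidney. The young kidneys were at -1.05, -1.39 and -1.47 and the aged kidneys at 1.11, 0.53 and 0.32. The groups were far apart, with a log2 change of 1.96 (SE 0.23, limma adjusted p = 0.000759). In the liver the aged levels were 6.32, 6.49 and 6.67. They lay below all 3 young livers, but the change of -0.44 (95% interval -0.84 to -0.04) did not pass the adjusted threshold (limma adjusted p = 0.0891), and under quantile normalization it was -0.17. The summed level of the 5 hepatocyte markers was 2902 to 3375 in the young livers and 2006 to 2305 in the aged ones, with 2 of 5 called lower, and its part in the lower levels of Igf1 and Igfals there was not tested. In WAT Igf1 was at 3.44, 4.33 and 4.02 at 10W and at 4.56, 4.24 and 4.49 at 90W, and the groups overlapped (change 0.50, limma adjusted p = 0.365).

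In the lung the change of Igf1 depended on single arrays. The young lungs were at -0.10, -0.13 and -0.34 and the aged lungs at 0.78, -2.31 and 1.29. Aged lung 2 was lower than every young lung, whereas the other aged lungs were higher than every young lung. Over all arrays the change was 0.11 (SE 0.92, limma adjusted p = 0.95), and without aged lung 2 it was 1.23 (limma adjusted p = 0.0327). Without aged lung 1 it was -0.32 and without aged lung 3 it was -0.58, and neither was called. Aged lung 1 was the array with the high hepatocyte sum (214), whose part in the level of Igf1 was not tested. The summed level of 8 macrophage markers was 81.3, 41.7 and 155 in aged lungs 1, 2 and 3, against 51.8 to 56.0 in the young lungs. Aged lung 2 thus had the lowest macrophage sum and the lowest Igf1 of the 6 lungs. It also had the lowest sums of the fibroblast (41.4), adipocyte (7.76) and B and plasma cell (5.98) markers, and the highest neutrophil sum given above. The low fibroblast and adipocyte sums were shared by the other aged lungs. The fibroblast sum was 103 to 133 in the young lungs and 41.4 to 63.9 in the aged ones. The adipocyte sum was 36.9 to 62.3 and 7.76 to 25.2. The part of these markers in the level of Igf1 was not tested.

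In the kidney, where Igf1 rose, the macrophage sum was between 21.9 and 25.1 at 10W and between 83.3 and 121 at 90W, and 8 of 8 macrophage markers were higher at 90W. The sum of 5 fibroblast markers was 15.6 to 18.3 at 10W and 76.6 to 106 at 90W, with 5 of 5 higher. The sum of 4 kidney tubule and podocyte markers was 533 to 651 at 10W and 180 to 361 at 90W. Of these 4, 2 were lower and 1 higher at 90W. Markers of immune cells and of the acute phase response rose as well, those of B and plasma cells from sums of 0.800 to 1.07 to sums of 49.0 to 82.6 (6 of 6 higher), and those of the acute phase from 0.892 to 1.22 to 32.9 to 39.8 (4 of 5 higher). Of 6 tested T cell markers, 5 were higher and 1 lower. Of 5 adipocyte markers, 4 were higher and 1 lower, and all 4 tested hepatocyte markers were lower. These marker lists moved together with the age groups of the kidney, and their part in the changes of the axis genes there was not tested.

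Igf1r, the receptor kinase that IGF1 activates, ran opposite to its ligand among the young tissues. It was highest in the kidney, at 3.64, 3.54 and 3.54, and lowest in the liver, at -2.03, -2.30 and -1.86. The liver minus kidney difference was -5.64 on the log2 scale, or 49.7-fold (limma adjusted p = 7.79e-12), and the lung at 1.28, 1.49 and 1.35 and WAT at 1.01, 0.21 and 0.16 stood between them. All 6 pairs of tissues differed at 10W. In the aged kidneys Igf1r fell to 2.69, 2.81 and 2.97, a change of -0.75 (SE 0.10, limma adjusted p = 0.00115) that the second probe gave as -0.40. With spike-in scaling the change was -0.36 and was no longer called (limma adjusted p = 0.0791).

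In the aged livers Igf1r was at -1.42, -0.14 and -1.35, above every young liver. The change of 1.09 (SE 0.35) did not pass the test (limma adjusted p = 0.0577), and the second probe gave 0.67 with separate groups. Igf1r was called in the liver with spike-in scaling (1.21, limma adjusted p = 0.0209) and in the fit of all 24 arrays (limma adjusted p = 0.00496). The highest value was that of aged liver 2, the array with the high neutrophil sum. Without that array the change was 0.68 (limma adjusted p = 0.0573). In the lung the aged levels of 1.28, 1.86 and 0.97 surrounded the young ones (change -0.01). In WAT they were 0.12, -0.06 and 0.14, just below the young levels (change -0.40, limma adjusted p = 0.459).

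Igfals, which encodes the liver's acid-labile subunit, was highest in the young liver, 4.86-fold above WAT (limma adjusted p = 4.87e-06), followed by WAT, the kidney and the lung, and all 6 pairs of tissues differed at 10W. Its aged samples lay below all young samples in the liver, WAT and kidney. In the liver it fell from 2.38, 2.47 and 2.66 to 2.03, 1.36 and 1.92, a change of -0.73 (SE 0.22, limma adjusted p = 0.0460). In the kidney it fell from -1.46, -1.14 and -1.28 to -2.01, -2.28 and -2.06, a change of -0.82 (SE 0.12, limma adjusted p = 0.00180). The kidney call was kept under all 15 alternatives, and the liver call under 4 of 15. In WAT the levels were 0.16, 0.03 and 0.48 at 10W and -1.85, -0.33 and -1.67 at 90W. This change of -1.51 was large but variable and did not pass the test (SE 0.43, limma adjusted p = 0.137). Without aged WAT 2 it was -1.99 (limma adjusted p = 0.0371). The hepatocyte markers summed to between 5.07 and 24.6 in young WAT and between 0.567 and 1.74 in aged WAT, and their part in this change was not tested. In the kidney they summed to between 104 and 133 at 10W and between 44.4 and 70.2 at 90W. All 4 tested there were called lower, and their part in the kidney fall of Igfals was not tested either. In the lung Igfals was near the detection limit, at -3.83, -3.97 and -3.72 at 10W and at -4.56, -5.69 and -4.78 at 90W, and only 1 of 3 aged lungs was well above background. The change of -1.17 there (limma adjusted p = 0.0796, and -0.54 with normexp) is therefore set against signals that mostly did not clear the background.

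Stat5a and Stat5b encode the pair of closely related transcription factors that carry the GH signal to the nucleus. Stat5a fell in the liver from 4.0, 3.62 and 4.43 to 3.23, 3.14 and 2.86, a change of -0.94 (SE 0.24, limma adjusted p = 0.0305). It also fell in the kidney, from 2.88, 2.77 and 2.83 to 2.28, 2.22 and 2.37, a change of -0.53 (SE 0.08, limma adjusted p = 0.00186). The groups were separate in both tissues. The second probe of Stat5a, which was dimmer, gave -0.28 in the liver and -0.07 in the kidney with overlapping groups, so the 2 probes disagreed on the size of the fall. With spike-in scaling the kidney change was -0.15 (limma adjusted p = 0.430) and the liver change -0.82 (limma adjusted p = 0.149), and neither was called. The liver call was kept under 6 of 15 alternatives and the kidney call under 14 of 15. In the lung Stat5a was between 2.58 and 2.74 at 10W and between 2.65 and 2.94 at 90W, and in WAT between 2.39 and 2.50 and between 2.36 and 2.44. No age change of these passed the test. The second probe gave another value in WAT, where its change was -0.61 (95% interval -1.10 to -0.12) with separate groups, against -0.05 on the brighter probe.

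Stat5b was not called with age in any tissue. Its groups were separate in the kidney alone, at 2.12, 2.22 and 2.11 at 10W and at 1.97, 2.0 and 1.94 at 90W. The change was -0.18 (limma adjusted p = 0.0729) and was 0.20 with spike-in scaling. In the liver Stat5b was at 3.57, 3.13 and 3.02 at 10W and at 2.89, 2.96 and 3.21 at 90W, with overlapping groups (change -0.22, limma adjusted p = 0.427). Among young tissues the liver had the highest Stat5a and Stat5b, by 1.38 and 0.64 over the lung. With spike-in scaling these differences were -0.0032 and -0.75, so the place of the liver in this order depends on the scaling.

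Socs2, a feedback inhibitor that binds the activated GH receptor, rose in the kidney from -0.27, -0.55 and -0.39 to 0.89, 0.71 and 0.69. The change of 1.17 (SE 0.11, limma adjusted p = 0.000381) was called under all 15 alternatives, and the second probe gave 0.91. The direction of Socs2 in the kidney was thus opposite to that of Ghr. No change of Socs2 was called elsewhere. The liver levels were 0.67, 1.66 and 1.49 at 10W and 1.21, 1.64 and 1.69 at 90W (change 0.24, limma adjusted p = 0.550). The highest young levels were in the lung, at 2.56, 2.79 and 3.13, above the liver by 1.55, the kidney by 3.23 and WAT by 3.08, and all 3 differences passed the test (limma adjusted p at most 0.00105). WAT varied most, from -1.10 to 0.49 at 10W and from -0.25 to 1.21 at 90W. The highest aged value was that of aged WAT 3, the array with the high neutrophil sum (851). The change of Socs2 in WAT was 0.51, and without that array it was 0.034. The part of the neutrophil markers in it was not tested.

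Cish, the other feedback inhibitor, and Bcl6, the repressor, were not called with age in any tissue, and in the liver and kidney their young samples were the most variable of the axis. In the liver Cish was at 3.01, 0.59 and 2.14 at 10W and at 2.11, 2.56 and 2.23 at 90W. In the kidney it was at 3.06, 1.26 and 2.67 at 10W and at 1.87, 1.63 and 1.72 at 90W. The sample numbered 2 was the lowest of the young samples in both tissues. Bcl6 was at 3.23, 3.92 and 1.52 in the young livers and at 2.32, 4.44 and 2.07 in the young kidneys. Here the sample numbered 2 was the highest in both tissues, and it was also the highest of the young WAT samples (2.56, 3.81 and 2.14). The aged kidneys had Bcl6 at 2.34, 2.57 and 2.81, and the aged livers at 1.36, 2.35 and 2.45.

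In the lung, by contrast, Cish stayed between 2.34 and 2.48 and Bcl6 between 3.08 and 3.29 in the young samples. The SD of Cish over 3 young samples was 1.22 (liver), 0.95 (kidney) and 0.07 (lung), and that of Bcl6 was 1.23, 1.30 and 0.10. The age change of Cish in the kidney was -0.59 (limma adjusted p = 0.288), and without young kidney 2 it was -1.13 (limma adjusted p = 0.00379). Whether the young samples numbered 2 came from 1 mouse is not given in the labels. Cish was lower in young WAT, at 0.34, -0.01 and -0.65, than in the young liver by 2.02, the lung by 2.50 and the kidney by 2.44 (limma adjusted p at most 0.00222). In aged WAT Cish was at 0.28, -0.43 and 1.32, with the highest value in aged WAT 3. The age change of 0.50 there was 0.035 without that array. Bcl6 differed between no pair of tissues at 10W.

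**Figure D2:**
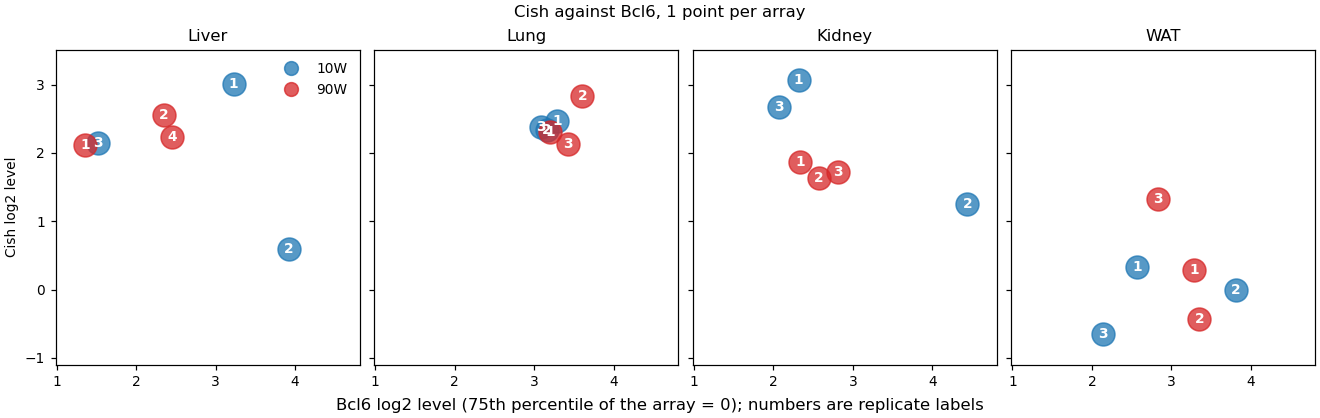
Log2 level of Cish (vertical axis) against that of Bcl6 (horizontal axis), with 1 numbered point per array in each tissue, and the number giving the replicate label. Young sample 2 lies at the lower right in the liver (Bcl6 3.92, Cish 0.59) and in the kidney (Bcl6 4.44, Cish 1.26), whereas the lungs lie close together.

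Promoter sequences were examined for the palindrome TTCNNNGAA, the core that STAT5 dimers are known to bind and that reads the same on both strands. RefSeq promoter windows (assembly GRCm38.p6, 250 bases before to 50 after each start) were found for 8 of the 9 genes, in 14 windows, and not for Socs2. The palindrome was in 5 of these windows, of Igfals, Cish and Bcl6, and in 8.30% of all 32851 windows. At least 2 copies were in 0.457% of all windows and at least 3 copies in 0.0335%. A match is a description of the letters and not of a bound site. The Cish window, the Bcl6 window with 3 copies and the Igfals window with a copy nearest to a start are shown because young sample 2 had a low Cish and a high Bcl6 level in liver and kidney, and Igfals was called lower with age in those tissues. Letters in capitals mark the palindrome, and all 3 are written 5′ to 3′ on the strand of the gene.
Cish promoter, chr9:107296409-107296708, forward strand: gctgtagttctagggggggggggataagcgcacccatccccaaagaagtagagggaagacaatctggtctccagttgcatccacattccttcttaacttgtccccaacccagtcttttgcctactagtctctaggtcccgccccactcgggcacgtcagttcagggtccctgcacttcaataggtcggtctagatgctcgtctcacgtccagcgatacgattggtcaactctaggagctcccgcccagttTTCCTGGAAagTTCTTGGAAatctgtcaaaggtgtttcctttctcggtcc
Bcl6 promoter, chr16:23981234-23981533, reverse strand: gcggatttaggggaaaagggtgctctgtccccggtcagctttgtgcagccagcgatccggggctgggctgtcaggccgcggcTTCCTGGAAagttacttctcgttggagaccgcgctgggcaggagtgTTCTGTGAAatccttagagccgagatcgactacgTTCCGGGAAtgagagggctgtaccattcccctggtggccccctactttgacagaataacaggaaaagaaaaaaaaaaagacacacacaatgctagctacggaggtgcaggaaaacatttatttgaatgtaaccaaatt
Igfals promoter, chr17:24877981-24878280, forward strand: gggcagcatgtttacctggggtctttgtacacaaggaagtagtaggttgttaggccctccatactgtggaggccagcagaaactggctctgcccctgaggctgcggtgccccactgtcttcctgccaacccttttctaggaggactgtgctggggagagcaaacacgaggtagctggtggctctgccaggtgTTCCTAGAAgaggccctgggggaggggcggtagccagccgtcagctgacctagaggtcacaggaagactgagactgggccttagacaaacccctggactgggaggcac
The 2 copies in Cish begin at the start itself and 11 bases after it. The 3 copies in Bcl6 begin 168, 122 and 88 bases before the start, and that in Igfals begins 58 bases before it. The windows of Ghr, Igf1, Igf1r, Stat5a and Stat5b held no copy, which says only that these letters are not in these windows.

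Counted over the axis, 6 of 9 genes were called in the kidney, with Igf1 and Socs2 higher and Ghr, Igf1r, Igfals and Stat5a lower at 90W. The share of all 31505 genes called there was 63.1%, so the count is close to the background of that tissue. In the liver 2 of 9 were called, Igfals and Stat5a, both lower, beside 27.5% of 27905 genes. No axis gene was called in the lung, where 5.61% of 30327 genes were (2.72% higher and 2.89% lower at 90W), or in WAT, where 2.59% of 30063 genes were (2.01% higher and 0.579% lower). In each of these tissues 2 of the 9 had an unadjusted limma p under 0.05, and Student's t-test with the same adjustment called 0 in both. Without aged lung 2 the lung count was 2, Igf1 and Igfals, and without aged lung 1, the array with the high hepatocyte sum, it was 0. In the liver the count was 0 without aged liver 2 and 0 or 1 whichever array was left out, and in WAT it was 2, Ghr and Igfals, when all 24 arrays were fitted together. The age groups did not overlap for 4 of 9 genes (liver), 2 (lung), 7 (kidney) and 3 (WAT), against 49.8%, 35.8%, 70.7% and 28.8% of all genes. The median change of the 9 was -0.44 (liver) and -0.53 (kidney), against -0.20 and -0.23 over all genes tested there. With spike-in scaling the median of all genes was -0.08 for liver and 0.15 for kidney.

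**Figure D3:**
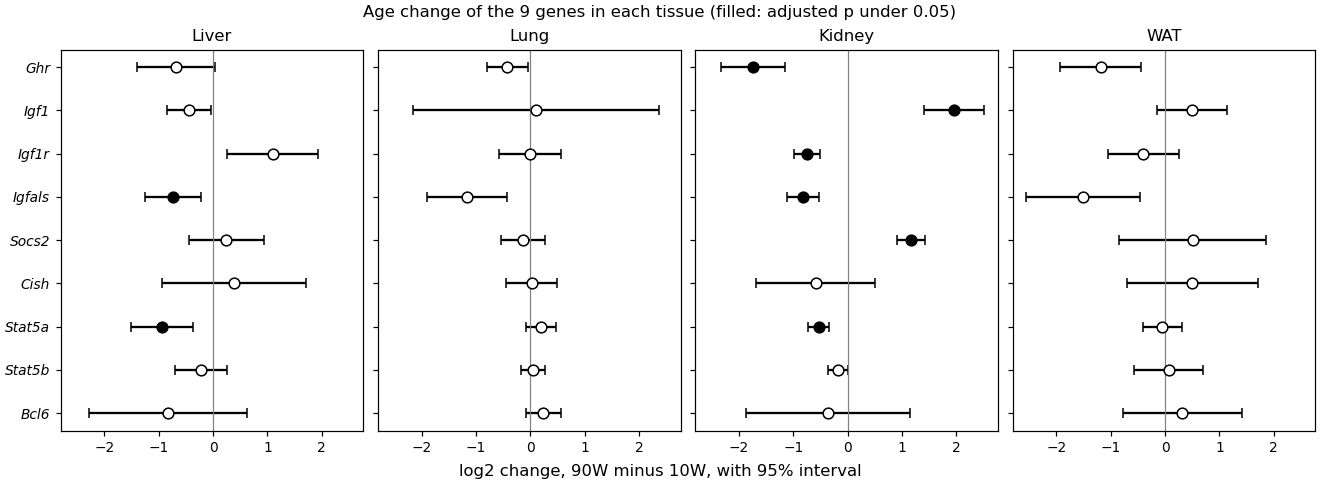
Log2 change from 10W to 90W of each gene in each tissue, with its 95% interval from the limma fit of that tissue. Filled points have an adjusted p under 0.05. The kidney has 6 filled points and the liver 2, and the intervals in WAT and for Igf1 in the lung are wide.

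Whether the age change differed between tissues was tested in the fit of all 24 arrays. It differed for Igf1r (limma adjusted p = 0.00700) and Stat5a (limma adjusted p = 0.00190), 2 of 9 genes, where 37.5% of 25771 genes were called. The change of Igf1r in the liver exceeded that in the kidney by 1.84 (SE 0.40, limma adjusted p = 0.00542) and that in WAT by 1.49 (limma adjusted p = 0.0147). These comparisons called 9.40% and 18.9% of all genes. The change of Stat5a in the liver (-0.94) was lower than that in the lung (0.19) by 1.13 (SE 0.21, limma adjusted p = 0.00177). That comparison called 16.8% of genes. The liver change of Stat5a was also lower than in WAT, by 0.889 (limma adjusted p = 0.00765), but on the second probe the order was turned (-0.28 in the liver and -0.61 in WAT). The change of Stat5a in the kidney was lower than in the lung, by 0.729 (limma adjusted p = 0.0187), where 23.3% of genes were called. For Ghr the test over 4 tissues gave a limma adjusted p of 0.0508, but the pair of lung and kidney differed, with a change in the lung that exceeded that in the kidney by 1.32 (SE 0.40, limma adjusted p = 0.0237). For Igf1 the test over 4 tissues gave a limma adjusted p of 0.0889 and no pair of tissues was called. The change in the liver minus that in the kidney was -2.40 (SE 0.79, limma adjusted p = 0.0653). This fit pools the spread over all groups, and the SD of Igf1 was 1.95 in the aged lungs. Over 4 tissues Igf1 was called under 2 of 11 alternatives (limma adjusted p between 0.00188 and 0.269). Among young tissues, 37 of 54 pairs of gene and tissue contrast were called. The shares over all 34151 genes were 72.4% for liver against lung, 54.8% for liver against kidney, 66.5% for liver against WAT, 62.7% for lung against kidney, 52.4% for lung against WAT and 55.0% for kidney against WAT.

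The other genes of the pathway were followed in 6 lists. Of 16 genes of the GH receptor and JAK-STAT pathway, 9 were higher and 2 lower in the aged kidney, beside 20.6% and 42.6% of all genes. Feedback inhibitors were among the largest changes. Socs3, a feedback inhibitor of cytokine receptors, rose from -0.64, -1.64 and -0.12 to 2.98, 3.24 and 2.81, a change of 3.81 (SE 0.38, limma adjusted p = 0.000480). The groups were far apart. Socs1, a related inhibitor of JAK kinases, rose by 1.63. In the liver 5 of 16 rose and 0 fell (10.5% and 17.0% of all genes), led by Ptpn6, a phosphatase abundant in blood cells, at 1.28, then Socs5 at 0.79 and Prlr, the prolactin receptor, at 0.78. Ptpn6 was called in all 4 tissues, with changes of 1.00 in the lung and 1.83 in WAT. In the liver 8 of 8 macrophage markers were also higher at 90W (summed level 48.7 to 66.8 at 10W and 207 to 241 at 90W), and in WAT 3 of 8 were (45.4 to 135 and 321 to 724). Their part in the rise of Ptpn6 was not tested.

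Of 16 genes of IGF and insulin signalling, 4 rose and 8 fell in the kidney, shares near the 20.6% and 42.6% of all genes there. Mtor, the kinase that couples nutrients to growth, fell by 1.39 there, Irs1, the adaptor of the insulin and IGF1 receptors, fell by 0.714, and Pik3r1, a regulatory subunit of PI 3-kinase, rose by 0.81. In the liver 1 of 16 was called, Akt2 at -0.47, and in the lung also 1 of 16, Irs1 at -1.04. In WAT 0 of 16 were called. Irs1 was thus lower with age in 2 tissues.

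Among 12 IGF binding proteins and their proteases, 5 rose and 6 fell in the aged kidney, beside the same 20.6% and 42.6%. Igfbp2, a binding protein that limits access of IGF1 to its receptor, rose from -3.89, -3.95 and -3.62 to 2.37, 1.67 and 1.08, a change of 5.52 (SE 0.32, limma adjusted p = 8.65e-05). Pappa2, a protease that cuts IGF binding proteins, rose by 3.67 and Stc2, an inhibitor of that protease, by 2.85. In the liver 3 of 8 tested rose (10.5% of all genes did), Igfbp3 by 1.40, Htra1 by 1.01 and Igfbp7 by 0.59. Igfbp3, the main partner of IGF1 and the acid-labile subunit in blood, was at 2.80, 2.89 and 2.31 in the young livers and at 4.38, 3.68 and 4.14 in the aged livers. In the lung Igfbp3 fell by 1.74 (SE 0.21, limma adjusted p = 0.0167), from 3.69, 3.70 and 3.40 to 1.5, 2.26 and 1.81. Its direction in the liver and in the lung was opposite, with separate groups in both, and the difference between the tissues was not tested. The part of the lower fibroblast and adipocyte sums of the aged lungs in the lung falls of Igfbp3 and Irs1 was not tested either.

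**Figure D4:**
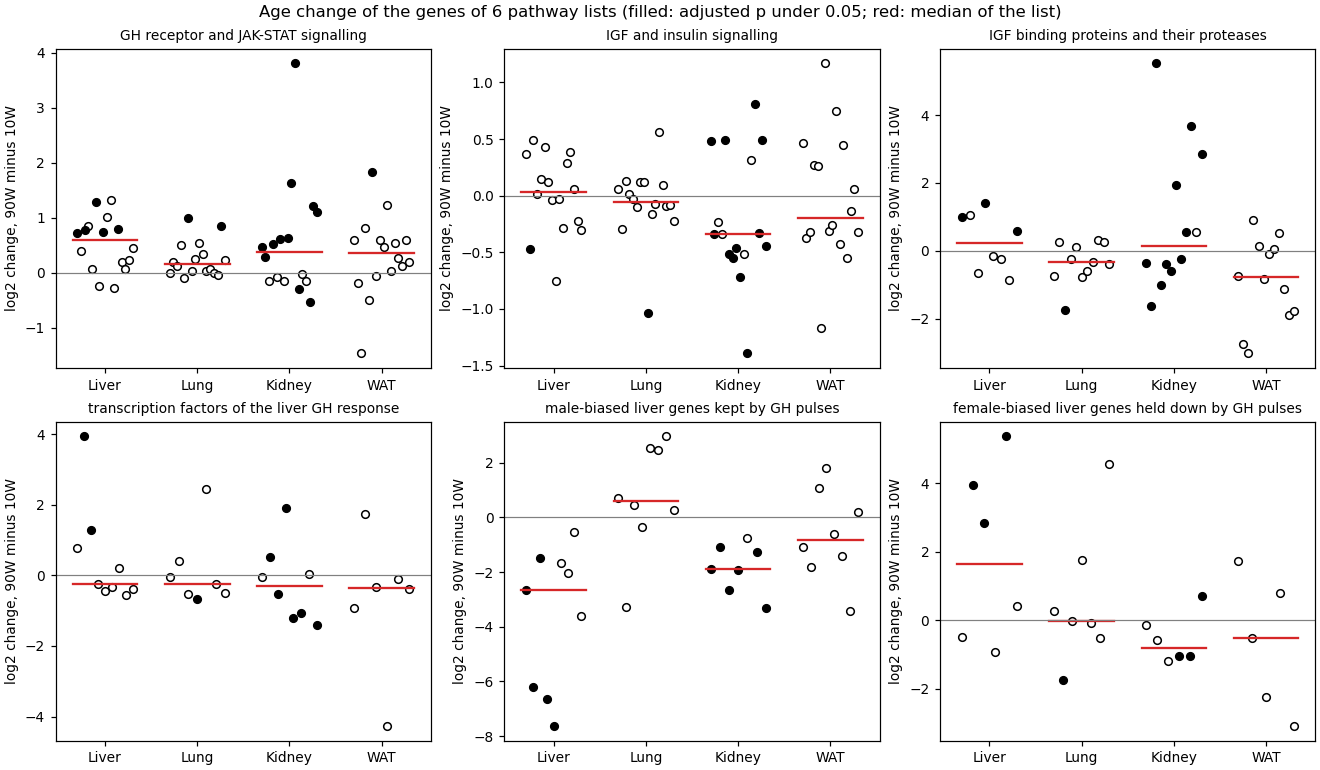
Log2 change from 10W to 90W of every tested gene of the 6 pathway lists by tissue. Filled points have an adjusted p under 0.05 and the red line is the median of a list. The male-biased genes lie low in the liver (median -2.64) and the female-biased genes high (median 1.64).

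Of the 6 pathway lists in 4 tissues, the male-biased liver genes had the median change furthest from 0, in the liver. Of 9 male-biased genes, 5 fell in the aged liver and 0 rose (17.0% of all genes fell), with a median change of -2.64 against -0.20 over all genes. Hsd3b5, a steroid dehydrogenase, was at 5.91, 6.13 and 5.35 in the young livers and at -2.73, -5.55 and 2.76 in the aged livers (change -7.64, SE 1.85, limma adjusted p = 0.0268), and aged liver 2 was not well above background. Elovl3, a fatty acid elongase, was at 6.52, 6.61 and 4.85 at 10W and at -2.45, -3.22 and 3.77 at 90W (change -6.63). Cyp4a12a, a fatty acid hydroxylase, was at 5.83, 6.18 and 6.05 at 10W and at -0.48, -3.70 and 3.67 at 90W (change -6.19). In all 3 genes aged liver 4 lay closest to the young livers, and it was also the aged liver whose Ghr level was among the young ones on the brightest of 3 probes, though not on the other two.

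Of 10 female-biased genes, 6 were tested in the liver, 3 rose and 0 fell (10.5% of all genes rose), with a median change of 1.64. Cyp2b9 was at 4.28, 4.39 and 3.86 at 10W and at 6.06, 7.52 and 7.49 at 90W, a change of 2.85 (SE 0.41, limma adjusted p = 0.00589). Cyp2b13 rose by 3.95, and Cyp3a44, whose signal in the young livers did not clear the background, was at least 13.2-fold higher at 90W. These P450 genes have near-identical relatives, and their probes may share signal with them. Of the 9 transcription factors of the liver GH response, 2 rose there. Cux2, a female-biased repressor of male-biased genes, did not clear the background in the young livers, was at -0.07, -0.50 and -4.55 in the aged livers, and was at least 7.20-fold higher at 90W (limma adjusted p = 0.0436). Esr1, the estrogen receptor, rose by 1.29. For Cux2 too, aged liver 4 was the one closest to the young livers. For Cyp2b9 it was not, as aged liver 1 (6.06) lay closest and aged liver 4 (7.49) was near aged liver 2 (7.52).

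**Figure D5:**
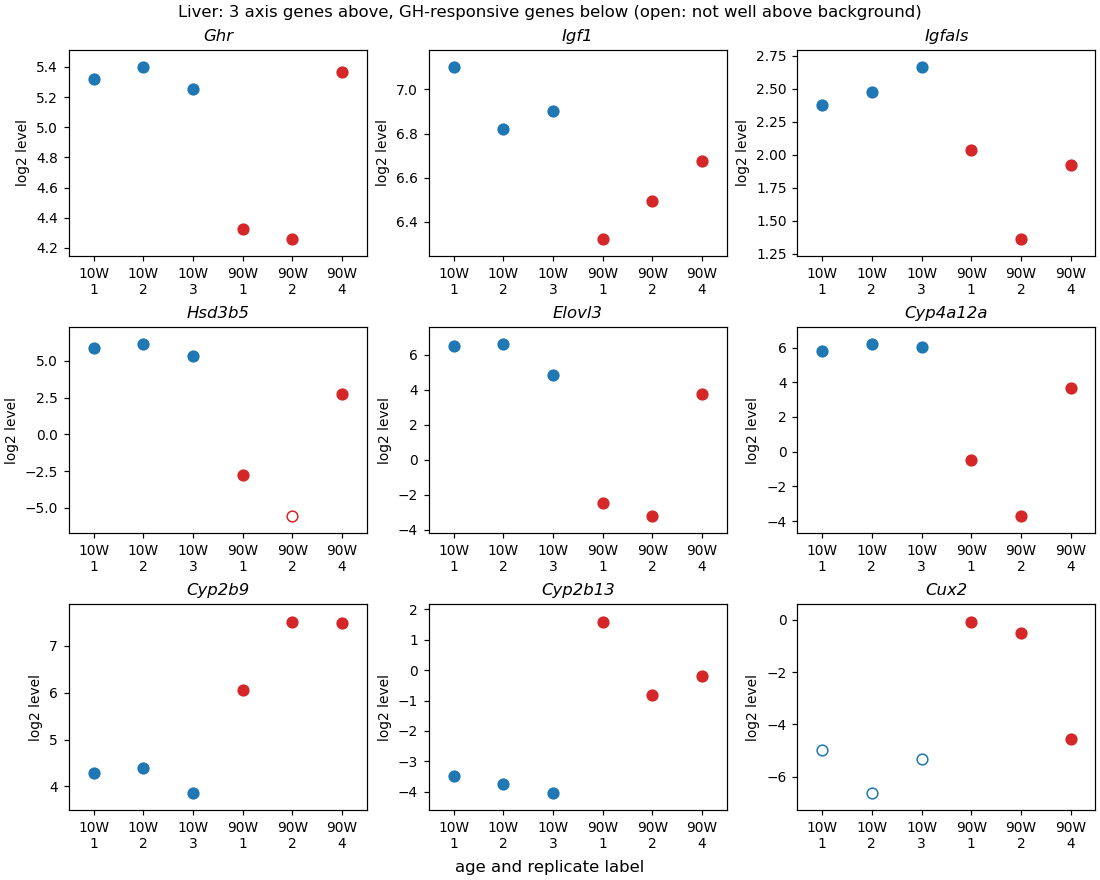
Log2 level on each of the 6 liver arrays of 3 axis genes (top row), 3 male-biased genes (middle row) and 2 female-biased genes with Cux2 (bottom row). Open points were not well above background. In aged liver 4 the levels were 5.36 (Ghr), 6.67 (Igf1), 2.76 (Hsd3b5), 3.77 (Elovl3), 3.67 (Cyp4a12a) and -4.55 (Cux2). These lie closer to the young livers than those of aged livers 1 and 2. Igf1 and the 3 male-biased genes still stay below every young liver there. For Igfals and Cyp2b9 aged liver 1 lies closest instead. Ghr is shown by its brightest probe, and on the other two aged liver 4 lay below the young livers.

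The same lists were counted in the other tissues, where 20.6% of all genes rose and 42.6% fell in the kidney. In the kidney 6 of 7 tested male-biased genes fell, led by Slco1a1, an organic anion carrier, at -3.30, then Cyp7b1, an oxysterol hydroxylase, at -2.64 and Mup20 at -1.92, and Mup20 belongs to a family of near-identical genes. Of 6 tested female-biased genes 1 rose in the kidney, Prom1 at 0.72, and 2 fell, among them Cyp3a41a at -1.04. Of 8 tested transcription factors 2 rose and 4 fell there, among them Foxa2 at 1.90 and Thrb at -1.40. Foxa2 was well above background in 1 of 3 young kidneys. In the lung Foxa2 fell by 0.683 and Cyp2b13 fell by 1.74, although only 1 of 3 aged lungs was well above background for Cyp2b13, and 0 of 8 male-biased genes were called. In WAT 0 genes of these 3 lists were called.

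The genes whose levels followed each axis gene most closely over the 24 arrays were ranked by Pearson's r. For Ghr they were Mecr (0.987), Clybl (0.978) and Zwint (0.975). For Igf1 they were Apoe (0.969), Olfr812 (0.961) and Ndst2 (0.954), and for Igf1r Glis3 (0.981), Crocc (0.974) and Slco3a1 (0.972). Hebp1, Pgm1 and Slc25a44 led for Igfals (0.961 to 0.977), Kdm6a, Sftpd and Slco2a1 for Socs2 (0.926 to 0.934), and 1110006O24Rik and 4930556I23Rik were among those for Stat5a (0.960 and 0.949). For Stat5b the closest were Rap2c, 9430038I01Rik and Selenok-ps1 (0.930 to 0.931). For Cish they were Plk5, Bend7 and Acvr2b (0.819 to 0.843), and for Bcl6 Thap3, Sarnp and Gm6938 (0.628 to 0.632). These values describe 24 arrays that fall into 4 tissues, each on its own slide, so most of the likeness is between tissues, and it was lowest for Bcl6, the gene whose level differed between no pair of young tissues.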

How the data were processed

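The authors read each scan with Agilent Feature Extraction 11.0.1.1, per the submitters' processing notes and the file headers. The deposited intensity of each of 62976 spots is a processed signal, background-subtracted and unscaled between arrays, beside a detection call (well above background or not). Although the methods name a human kit, the files hold a mouse design built on mm9. Accessions, without versions, were matched to RefSeq symbols of GRCm38.p6 (32989 of 56605 probes, 58.3%), and positions are given only for promoter windows of that assembly.

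Uneven and outlier spots (1841 over 24 arrays) were dropped, and no spot was saturated. Log2 processed signals were reduced by the 75th percentile of the array. Probes had to be detected on at least 3 of the 6 arrays of a tissue, and the brightest stood for a gene. Aged and young samples were compared with limma 3.58.1 (lmFit and eBayes, under R 4.3.3), p-values were adjusted by Benjamini-Hochberg over every gene tested in that tissue, and 0.05 was the threshold. Levels at 10W and differences of the age change between tissues were tested in 1 limma fit of 24 arrays and 8 groups. In the fits of 1 tissue, p-values measure the spread between the 3 samples of each group. In the fit of 24 arrays that spread is pooled over the 8 groups. A bound ("at least") is used where no sample of the dimmer group was well above background, and is set against the lowest signal called so on each array. The fits were tested on simulated data. The number of arrays limits the precision.

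The alternatives were normexp (offset 16, on the median signal), quantile normalization, median centring, scaling to 350 spike-in spots, keeping dim probes, averaging the probes of a gene, a fit of 24 arrays, the replicate number as a block, the methods' t-test (Student's, unpaired) and each array left out in turn. Named genes were the 9 axis genes, in each pathway list and tissue the 3 called genes with the largest change, and for each axis gene the 3 with the highest Pearson's r. Some genes that this rule names are not reported here. The 9 genes and all lists were chosen with earlier results of these data known. Marker lists of T cells, B and plasma cells, adipocytes, lung epithelium, endothelium and the acute phase response were also summed. The series-wide table was not used.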

Additional observations from a re-analysis of the deposited data

Results flagged for a closer look

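The age change of Igf1r differed between the 4 tissues by the limma F test of the interaction (adjusted p = 0.00700), with log2 changes of -0.75 (kidney), 1.09 (liver), -0.01 (lung) and -0.40 (WAT). Over the 11 alternatives of that fit its adjusted p was between 0.00200 and 0.0539, the highest being without the young samples numbered 2. The age change of Stat5a differed as well (adjusted p = 0.00190), with -0.94 (liver), -0.53 (kidney), 0.19 (lung) and -0.05 (WAT), whereas its second probe gave -0.28, -0.07, 0.10 and -0.61. Its adjusted p was between 0.00377 and 0.0683 over the alternatives, the highest being with spike-in scaling. For Ghr the test over the 4 tissues did not pass (adjusted p = 0.0508), but the change in the lung (-0.42) differed from that in the kidney (-1.74) by 1.32 (limma adjusted p = 0.0237, adjusted over genes and not over the 6 pairs of tissues).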

How the results depend on the processing

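In the liver the count of axis genes called was 2; it was 0 under quantile normalization and under the methods' t-test, 1 with spike-in scaling (Igf1r, higher), 1 with the replicate block, and 0 to 1 when an array was left out. In the lung it was 0 and from 0 to 2 with an array left out (2 without aged lung 2). In WAT it was 0, 2 in the fit of all 24 arrays, and 0 to 1 with an array left out (1 without aged WAT 2). In the kidney it was 6 and stayed between 4 (spike-in scaling) and 7. The age change differed between tissues for 2 genes, for 1 with spike-in scaling, for 3 with the replicate block, and for 1 to 4 with a replicate number left out: 1 without young number 2, 4 without aged number 2 and 4 without aged number 3. The 37 calls between young tissues were 41 with spike-in scaling and 32 to 38 with a number left out. The cause of these differences was not tested.

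The replicate block changed the liver calls as above (Igfals, adjusted p = 0.166, Stat5a, adjusted p = 0.145, and Bcl6, now called at -1.72, adjusted p = 0.0456). The labels do not say what the numbers share. Deviations of same-numbered young and aged samples correlated between -0.11 and 0.19 (11 pairs), and those of same-numbered samples across tissues between -0.21 and 0.30 (33 pairs, 10 of them over 0.1). The highest was that of aged liver 2 with aged lung 2, and the 3 aged pairs of kidney and WAT were between 0.13 and 0.17. Since not every young and aged pair exceeded 0.1, the numbers were not used to pair the ages.

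Of the 540 age changes recomputed over the alternatives, 21 changed sign, in genes that had not been called. In the lung Igf1r was 0.0063 with normexp and 0.024 with quantile normalization, and with spike-in scaling Cish was -0.064 and Stat5b -0.043. In the kidney Stat5b was 0.024 with quantile normalization and 0.20 with spike-in scaling, and Bcl6 was 0.018 with the latter. With an array left out, Socs2 ran from -0.061 to 0.44 and Cish from -0.28 to 0.93 in the liver. In the lung Igf1r ran from -0.25 to 0.19, Cish from -0.18 to 0.17, Stat5b from -0.0045 to 0.081, Socs2 from -0.27 to 0.012 and Igf1 from -0.58 to 1.23. Bcl6 ran from -0.80 to 0.38 in the kidney and from -0.028 to 0.80 in WAT, and Stat5b from -0.20 to 0.22 in WAT. Between young liver and lung, Stat5a was -0.0032 and Stat5b -0.75 with spike-in scaling. Igfals and Cyp2b13 in the lung, Mup20 in the kidney and Cux2 in the young livers lie near the lowest signal called well above background, where changes are least precise. Hsd3b5 had a mean of 5.80 in the young livers and was not well above background in aged liver 2 alone.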
